A study of Mus musculus with 4 samples.

Results

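The values described here come from the 2 arrays of wild-type mammary tumors in a series of 4 arrays. Both carry RNA from tumors driven by PyV-mT, the polyoma virus middle T oncogene, in female C57BL/6 mice that still had St6gal1. The other 2 arrays hold tumors of St6gal1-/- littermates with the same oncogene and enter no value below. Each wild-type array was made from 1 pool of 3 tumors taken from 3 animals, aged 110 days and 14 days past the onset of the tumor. The promoter that drives the transgene is not named in the labels. Pool 1 belongs to the first and pool 2 to the second set of arrays. Of the 18193 genes with a probe set of their own, 11601 had a mean signal over the 2 pools above the level set by Y-linked genes, and members of the gene lists below it are given beside them.

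Middle T is a membrane-bound viral protein with no enzymatic activity of its own. It gathers cellular partners, among them Src family kinases, protein phosphatase 2A, Shc adaptors, phosphoinositide 3-kinase and phospholipase C gamma, and so acts like a receptor kinase that is always switched on. The mammary gland has an inner layer of luminal cells, which make milk in lactation, and an outer layer of basal, myoepithelial cells, which contract. Both lie on a basement membrane within a stroma of fibroblasts, fat, vessels and immune cells, and macrophages are a well-known component of tumors in middle T mice.

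The arrays were Affymetrix whole-genome mouse arrays, read in 1 colour. A signal is a linear intensity in arbitrary units, and paired values below are always pool 1 first and pool 2 second. For each gene the brightest of its probe sets by mean signal was used. Female mice lack a Y chromosome, so 16 probe sets of 8 listed Y-linked genes show what a probe set can read without its transcript. Their signals ran from 2.97 to 565, with a median of 129, and the highest, 565, came from Sry on pool 2. This highest reading is called the unspecific level. On pool 1 the highest Y-linked signal was 414. A wider set, all 20 probe sets of chromosome Y genes, read up to 850, so the level is a choice. Counts with that higher level are given at the end.

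A gene was called abundant when it was above the unspecific level on both arrays and in the top 10% by mean signal, which began at a signal of 12646, or 22.4 times the level. It was called moderate when it was above the level on both arrays but below that limit. Above the level on both arrays were 11128 genes, or 61.2% of all genes measured. Of all genes, 10% were abundant, 51.2% were moderate, 5.73% were above on 1 array and 33.1% were above on neither. Each list count below is to be read against these shares. The median gene had a mean signal of 1441. Just inside the abundant band was Nhsl1, at 16936 and 8356, and just outside it was Ankrd13a, at 11338 and 13952.

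Signals of different probe sets depend on their probes as well as on the transcripts, so genes are placed in these wide bands and finer differences between genes are not read. A reading below the level is likewise no proof of absence. Rps16, a subunit of every ribosome, read 228 and 12.3 on its only probe set, and Tmed2, a coat protein of transport vesicles in all cells, read 45.2 and 97.6. A choice of probe set matters too. Of the 906 list genes above on both arrays by their brightest probe set, 37 were above on neither by the median of their probe sets. Where these genes are named below, they are marked by how many of their probe sets were above, or for Cox6a2 by that median. By that median Trp63, Top2a, Ovol1, Ern1, Smad3, Yes1, Cdh5 and Tfrc, also named below, were above on 1 array only. A single probe set stood for 74.2% of the genes above on neither array, against 26% of the abundant genes. With 1 group there is no comparison between groups and no test, and the 2 pools, which share no animal, give the spread of each value.

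**Figure D1:**
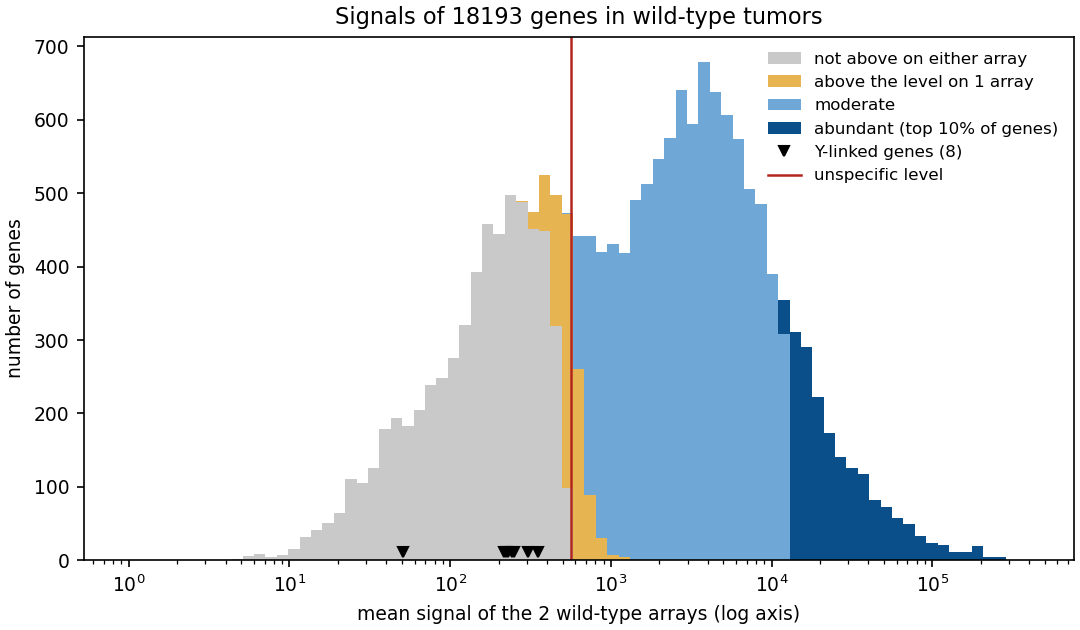
Number of genes (y) by mean signal over the 2 wild-type arrays (x, log axis) for all 18193 genes, stacked by band, with the 8 Y-linked genes as triangles and the unspecific level of 565 as a line. Most genes lie to the right of the line, and the abundant band starts at 12646 and has a long stretch of signal to itself.

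Genes of tissues other than mammary tumor showed how far the level holds. Of 37 such genes measured, 7 were above the level on both arrays, or 18.9%, and 25 were above on neither. Among the latter were Ahsg of liver at 19.7 and 139, Neurod6 of brain at 77.1 and 77.5, Myh6 of heart at 98.8 and 10.4 and Tnp2 of testis at 50.1 and 17. The 7 above the level were Fgb, Mbp, Cyp2e1, Krt10, Cela1, Gfap and Sftpc. Fgb, the fibrinogen beta chain of liver and plasma, read 10186 and 9583, and Mbp, a myelin protein also made in other forms outside nerve, read 5123 and 6654. Of 38 olfactory receptor genes, 0 were above on both arrays and 3 on 1 array. At 2 times the level 5 of the 7 were still above it, so a reading above the level is no proof that tumor cells make the transcript.

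The 2 pools read closely alike. Over the 11128 genes above the level on both arrays, log2 signals correlated at r = 0.973 (rank correlation 0.969) across genes, which are not independent replicates. The median difference between pools was 1.15-fold for abundant and 1.18-fold for moderate genes. At least 2-fold higher in pool 2 were 52 genes (0.467%), and at least 2-fold lower were 110 (0.988%). Control probe sets gave a 3'/5' ratio of 0.869 and 1.57 for Gapdh and of 1.63 and 1.96 for beta-actin, and the 18S probe sets read 11503 and 486 at the 5' end. The part these differences in RNA or labelling play in single genes was not tested.

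**Figure D2:**
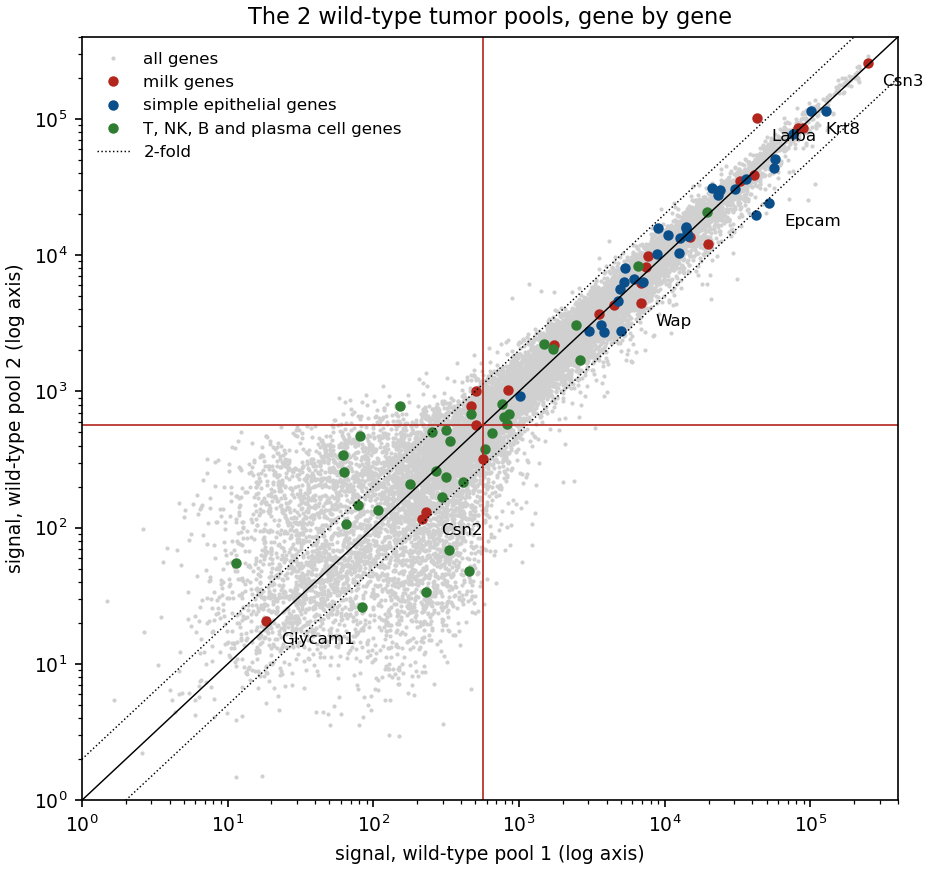
Signal in pool 1 (x) against pool 2 (y) for every gene, both axes logarithmic, with milk, simple epithelial and lymphocyte genes coloured, dotted lines at 2-fold either way and red lines at the unspecific level of 565. Genes above the level crowd the diagonal, Lalba and Epcam lie beyond the 2-fold lines, and genes below the level scatter widely.

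The brightest gene was Wfdc18, which encodes a secreted antiprotease of mammary epithelium with a whey acidic protein domain, at 248034 in pool 1 and 290914 in pool 2. Csn3, the kappa-casein that stabilises milk micelles, read 246664 in pool 1 and 256650 in pool 2. Igfbp5, a secreted protein that binds insulin-like growth factors in the gland, read 217515 in pool 1 and 231320 in pool 2. Among the 30 brightest genes these 3 stood beside others with secreted products, whose cell of origin is not given by RNA of whole tumors. Lcn2, the iron-siderophore binding lipocalin, read 202407 and 213279, and Cp, the copper-carrying ferroxidase ceruloplasmin, read 183869 and 205132. Fth1, the ferritin heavy chain that stores iron within cells, read 164795 and 198786, so 3 of the brightest genes handle iron. Neither pool stood apart at these genes.

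Most of the rest of the 30 was the machinery of translation. Ribosomal proteins made up 18 of them, led by Rps29 at 257671 and 265925, Rpl13a at 238720 and 253332 and Rpl38 at 214056 and 244852, and the translation genes Eef1a1 (212621 and 200913) and Tpt1 (207662 and 239666) brought the number to 20. The remaining ones were Itm2b, a membrane protein (188104 and 191292), the cytoskeletal actins Actb (172467 and 198421) and Actg1 (172660 and 176206), and the chaperone Hspa8 (154908 and 192142). Of the 30, 15 were read by probe sets whose name ending marks probes shared with other transcripts, and ribosomal genes have near-identical copies, so their signals are uncertain. The 30th gene still read 64.4% of the first. The 30 together held 6.09% of the signal summed over all genes, and the brightest 100 held 14.4%.

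Promoter sequences are shown for 3 of these genes, Wfdc18, Rpl13a and Rpl38, and for 3 milk genes, Csn1s1, Csn2 and Wap. They are examples for motifs beside the start of transcription whose shares are given below, and do not stand for all bright genes. Each is RefSeq's on GRCm38.p6, from 110 bases before to 20 bases after the start, read 5' to 3' on the gene's strand. Capitals mark TATAAA in Wfdc18, TTCNNNGAA in Csn1s1 and Csn2, and runs of at least 8 C or T close to the start in Rpl13a and Rpl38. The promoters of Rps3a1 and Rpl41, bright ribosomal genes as well, hold no such run close to the start and are not shown. Wap, the whey acidic protein gene, holds neither TATAAA nor TTCNNNGAA in this stretch. They lie at chr11:83708894-83709023 on the plus strand for Wfdc18, chr5:87666098-87666227 on the plus strand for Csn1s1, chr5:87699406-87699535 on the minus strand for Csn2, chr11:6638630-6638759 on the minus strand for Wap, chr7:45128726-45128855 on the minus strand for Rpl13a and chr11:114668470-114668599 on the plus strand for Rpl38.
Wfdc18: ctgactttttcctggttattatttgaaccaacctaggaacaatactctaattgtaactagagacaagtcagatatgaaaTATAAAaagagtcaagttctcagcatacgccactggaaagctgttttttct
Csn1s1: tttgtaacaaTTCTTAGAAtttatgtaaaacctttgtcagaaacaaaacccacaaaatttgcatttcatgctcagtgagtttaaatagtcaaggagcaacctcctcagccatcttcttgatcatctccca
Csn2: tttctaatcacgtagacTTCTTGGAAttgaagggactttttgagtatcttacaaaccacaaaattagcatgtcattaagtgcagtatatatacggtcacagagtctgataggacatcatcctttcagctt
Wap: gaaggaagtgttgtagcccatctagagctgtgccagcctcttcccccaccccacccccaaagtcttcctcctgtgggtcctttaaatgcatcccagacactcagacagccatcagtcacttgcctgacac
Rpl13a: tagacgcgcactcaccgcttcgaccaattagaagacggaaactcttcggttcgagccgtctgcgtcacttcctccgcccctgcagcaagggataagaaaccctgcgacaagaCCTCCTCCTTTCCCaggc
Rpl38: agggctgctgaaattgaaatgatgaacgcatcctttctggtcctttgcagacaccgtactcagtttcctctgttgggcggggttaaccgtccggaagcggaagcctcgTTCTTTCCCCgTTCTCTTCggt

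Simple epithelial genes were the most uniformly present of the lineage lists. All 32 measured were above the level on both arrays, 17 of them abundant, with a median mean signal of 13581 against 1441 for all genes. Krt18, a keratin of simple epithelia, read 127565 in pool 1 and 114320 in pool 2. Its partner Krt8 read 101213 and 114827, and all 3 Krt8 probe sets were bright. Cd24a, a surface marker of luminal cells, read 75785 and 77366. Cdh1, the E-cadherin of epithelial junctions, read 57177 and 50907, and Cldn3, a tight junction claudin, read 56166 and 43780. Epcam, an epithelial adhesion molecule, was abundant with a wider spread, 52347 and 24274. Regulators of the epithelial state, Grhl2 (13930 and 15857, 2 of 4 probe sets above the level) and the splicing factor Esrp1 (23821 and 29838), were abundant too. The dimmest member was Ovol1, at 1011 and 932.

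Among 31 luminal regulators and hormone receptors, 25 were above the level on both arrays and 8 were abundant. Xbp1, a transcription factor of secretory cells, read 134488 in pool 1 and 137957 in pool 2, Nfib read 62702 and 60014 and Id2 read 54885 and 52957. Elf5, which drives the alveolar fate of luminal progenitors, read 46974 in pool 1 and 54862 in pool 2, and Kit, the receptor that marks those progenitors, read 30247 and 43961. Gata3, a factor of all luminal cells, read 13786 and 20569. The steroid receptors were moderate. Esr1, the estrogen receptor alpha, read 6647 in pool 1 and 4266 in pool 2, and Foxa1, its partner on chromatin, read 9995 and 9139. Pgr, the progesterone receptor, read 7864 and 6566 on its brightest probe set while its other 2 were not above the level. Esr2 was above on neither array, at 271 and 313, and neither was Tnfsf11, the RANK ligand made by progesterone-sensing cells, at 161 and 58.4. The prolactin pathway was represented by Stat5a (6695 and 9733), Stat5b (4894 and 3126) and Jak2 (7138 and 8035), all moderate.

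Basal and myoepithelial genes were present beside the luminal ones, with 22 of 26 above on both arrays and 7 abundant. Krt5 (10029 and 8559), Krt14 (8967 and 10843) and Trp63 (5893 and 4067), which define the basal layer, were all moderate. Igfbp5 was the brightest member, and it is also made by luminal and stromal cells. Acta2, the smooth muscle actin of contractile cells, read 86649 in pool 1 and 99265 in pool 2, but only 1 of its 3 probe sets was above the level. Sox10 read 38184 and 48115, Itga6, a laminin-binding integrin, read 61476 and 46036, and Tagln read 32914 and 21763. Above on neither array were Krt15 (117 and 539), Dsc3 (426 and 304) and Des (552 and 444). In RNA of whole tumors, fewer cells of a type and less RNA per cell cannot be told apart, here and for every marker below, and genes such as Acta2 and Tagln also belong to fibroblasts and vessel walls.

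Of 16 genes of mesenchymal transition, 13 were above on both arrays and 2 were abundant. Vim, the intermediate filament of mesenchymal cells, read 68422 in pool 1 and 60160 in pool 2, and Sox4 read 70902 and 71278. Transcription factors that define the programme ranged from moderate to below the level. Zeb1 read 2226 and 2634, above the 1441 of the median gene, with 2 of 4 probe sets above the level. Snai1 was close to the level at 662 and 708, and Twist1 was above on neither array at 545 and 408. Foxc2 read 66.6 and 54.4, while Foxc1 was moderate, at 7477 and 6284 by the median of its probe sets. Progenitor genes were above on both arrays in 16 of 17 cases. Cd14 (43002 and 50698), Slc12a2 (39478 and 39093) and Cd44 (31499 and 27104) were abundant, though Cd14 and Cd44 also mark macrophages and other cells. Itgb3 (4936 and 4121), Lgr5 (1797 and 1793) and Procr (586 and 676) were moderate, the last of them close to the level. Axin2, a Wnt target, was above on neither array at 432 and 520.

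Genes of cell division were nearly all present, 41 of 47 above on both arrays, but mostly moderate. Mki67, a protein of dividing cells, read 6660 in pool 1 and 6304 in pool 2, Top2a read 6429 and 7083 and Cdk1 read 5655 and 5830. The abundant members included Cdc20, of mitosis, which was moderate by the median of its probe sets and on pool 1 alone. Others, named next, act mainly in G1 and in replication. Rb1, the restriction point repressor, read 48940 and 46183, Ccnd1, the cyclin D1 that a growth signal induces, read 35467 and 24847, Pcna, the polymerase clamp, read 26663 and 23149 and Mcm7, of the replicative helicase, read 16112 and 20845. The helicase gene Mcm2 differed between pools, at 8471 and 2575. Myc was moderate at 6182 and 4836. The inhibitor Cdkn2a was above on 1 array, at 706 and 355, and Tyms on neither, at 362 and 313. Over these 6 lineage lists, counting shared members once, 147 of 167 genes (88.0%) were above on both arrays and 44 (26.3%) were abundant. The shares of all genes were 61.2% and 10%.

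**Figure D3:**
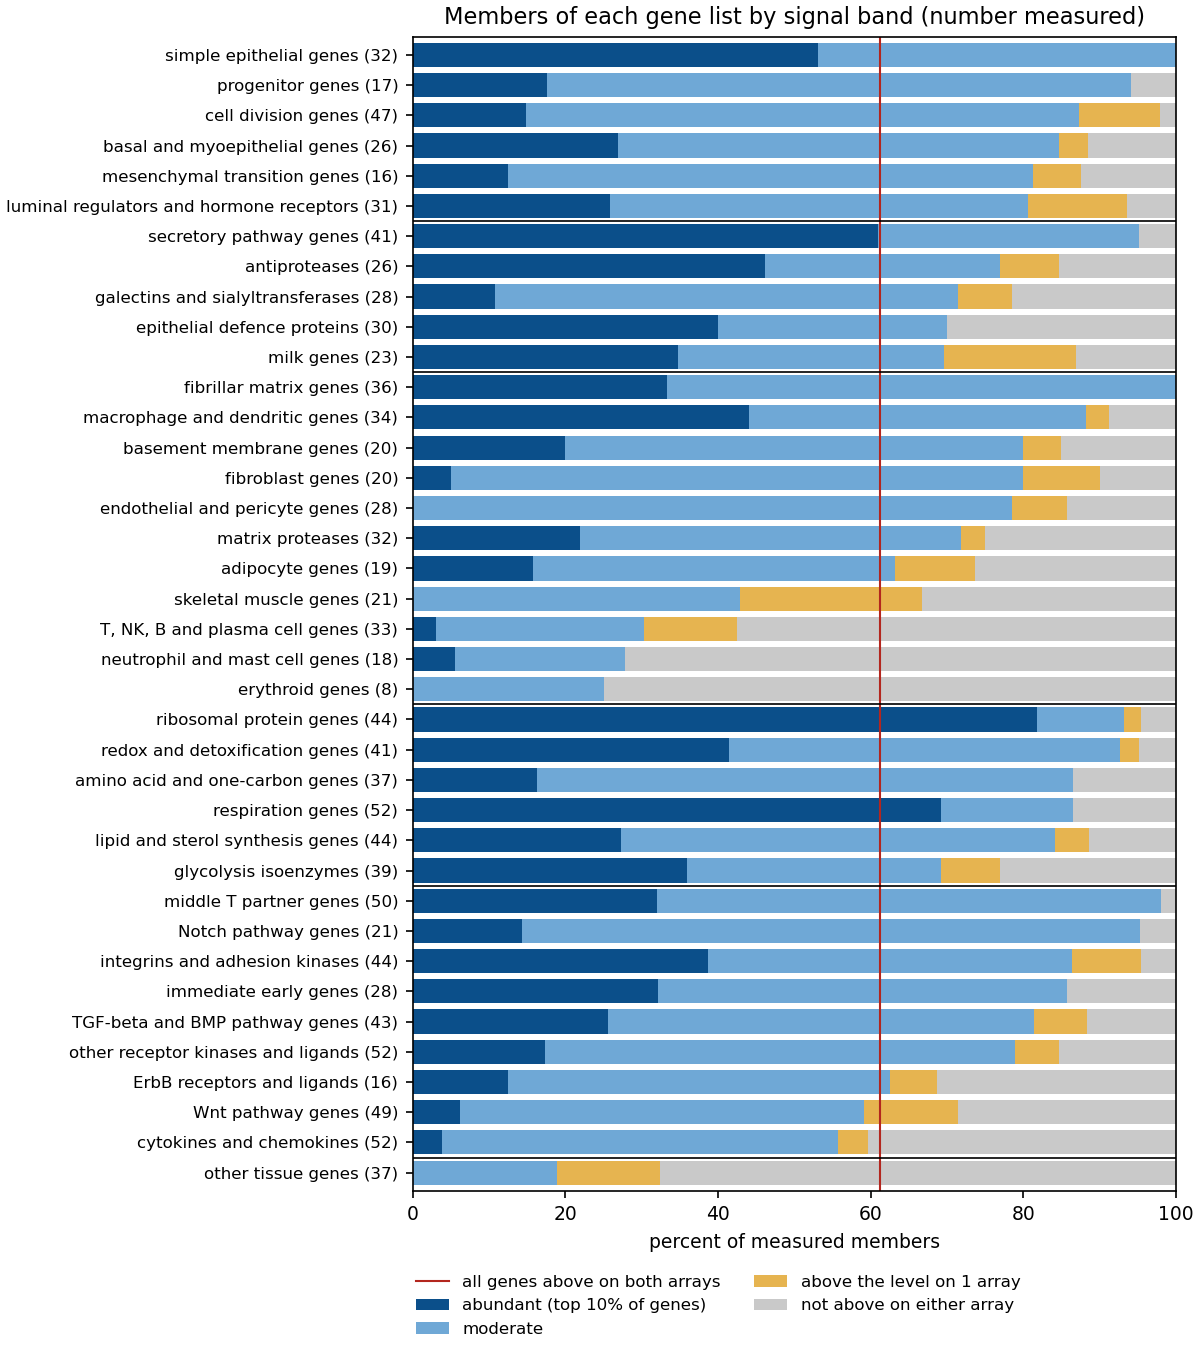
Percent of measured members (x) in each band for each gene list (y), grouped by class, with the share of all genes above on both arrays, 61.2%, as a red line. Ribosomal, respiration and secretory pathway genes have the widest abundant bands, at 81.8%, 69.2% and 61%, while lymphocyte, neutrophil and erythroid genes are mostly not above the level.

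The milk genes split sharply. Of 23 measured, 8 were abundant, 8 moderate, 4 above on 1 array and 3 above on neither. The 69.6% above on both arrays lay near the 61.2% of all genes, while 34.8% were abundant against 10%. Csn3 was among the brightest of all genes, as given above. Aldoc, an aldolase that is raised in milk-making cells, read 89030 in pool 1 and 85540 in pool 2, Mfge8, a protein of the milk fat globule, read 81888 and 85746 and Lalba, the alpha-lactalbumin needed for lactose synthesis, read 42860 in pool 1 and 101093 in pool 2. Lalba was 2.36-fold higher in pool 2, the widest rise of any abundant gene between pools. The casein genes neighbouring Csn3 were far dimmer: Csn1s1 read 4473 and 4334 and Csn2, the beta-casein that is a major protein of milk, read 231 in pool 1 and 130 in pool 2. Both Csn2 probe sets were below the level. Wap, the main whey protein of mouse milk, was moderate at 6838 and 4433. Glycam1 was above on neither array, at 18.5 and 20.7, and neither was the calcium pump gene Atp2b2, at 217 and 116. Genes of the milk fat globule, Plin2 (32991 and 34964), Xdh (14937 and 13566) and Btn1a1 (7649 and 9787), were abundant or moderate, with 1 of 3 probe sets of Btn1a1 above the level.

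The letters TTCNNNGAA, the spaced palindrome known as the core of Stat5 binding sites, were found between 250 bases before and 50 bases after the start in 6 of the 17 milk gene promoters, or 35.3%. Among all 18109 promoters of genes with a probe set, 7.21% held them. The motif reads the same on both strands. The 6 promoters belonged to Aldoc, B4galt1, Csn1s1, Csn1s2a, Csn2 and Glycam1, so their bands differed: Aldoc was abundant, B4galt1 (6830 and 6234), Csn1s1 and Csn1s2a (845 and 1025, 2 of 5 probe sets above the level) moderate, Csn2 and Glycam1 above on neither array. Lalba and Wap had no match in this window. Csn2 and Csn1s1 carry it at like distances, 93 and 100 bases before the start, while only Csn1s1 read above the level. The list's matches are a description of letters, and Csn3 had no promoter in the table.

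Antiproteases were well represented, with 20 of 26 (76.9%, against 61.2% of all genes) above on both arrays and 12 abundant. Beside Wfdc18, Cst3, the cystatin C that inhibits cathepsins, read 98540 in pool 1 and 130334 in pool 2, Timp2, an inhibitor of matrix metalloproteinases, read 52917 and 39653, and Cstb, an intracellular cystatin, read 43926 and 52755. Slpi, which blocks neutrophil elastase, read 43423 and 47368, and Wfdc2 read 12878 and 12917. Not every gene with the whey acidic protein domain was bright: Wfdc21 read 1175 and 1527, Wfdc15b read 320 and 314. Above on neither array were also Csta1 (45.9 and 86.9), Serpinb1a (83.6 and 248) and Serpinb2 (12.1 and 76).

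Secreted defence proteins showed the same mixture of very bright genes and genes below the level, 12 abundant, 9 moderate and 9 above on neither array of 30. That put 70% above on both arrays, near the 61.2% of all genes, and 40% in the abundant band, against 10%. After Lcn2 and Cp came Saa1, an acute phase lipoprotein, at 126560 in pool 1 and 137340 in pool 2, and Clu, the extracellular chaperone clusterin, at 84402 and 95409. Ltf, the iron-binding lactoferrin of milk, read 63376 and 81354, Chil1 read 85246 and 87442 and Lyz1 read 80213 and 93167. S100a8, a subunit of calprotectin, was abundant at 35879 in pool 1 and 32530 in pool 2, while S100a9, which encodes its partner, read 191 in pool 1 and 200 in pool 2 on its single probe set. Camp (47.9 and 329), Reg3g (47.1 and 52.6), Muc4 (289 and 34.4) and Tff3 (84.2 and 133) were above on neither array. Pigr, the receptor that carries antibodies across the epithelium, was moderate at 8119 and 11760.

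The pathway through which these proteins leave the cell was measured in 41 genes, of which 39 were above on both arrays and 25 abundant. Hspa5, the endoplasmic reticulum chaperone BiP, read 66805 in pool 1 and 85308 in pool 2. Calr, the lectin chaperone calreticulin, read 69352 and 94968, and P4hb, a disulfide isomerase, read 66217 and 100765. The translocon subunit Sec61b read 35594 and 50550 and Spcs1, of signal peptidase, read 49021 and 68760. Regulators of the stress response of this compartment fell in both bands: Xbp1, given above, and Atf4 (14973 and 14879) were abundant, while Atf6 (2364 and 2349), Ern1 (2996 and 3857) and Ddit3 (2555 and 2837) were moderate. Pdia4 was 2.7-fold higher in pool 2, at 3514 and 9502, and Sdf2l1 lower, at 2685 and 794, so these chaperone genes did not differ between pools in 1 direction. Ern2, a sensor of mucous cells, read 41.1 and 16.6.

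St6gal1, intact in these mice, was moderate at 2330 in pool 1 and 2796 in pool 2, with 1 of its 2 probe sets above the level. Among 28 galectins and sialyltransferases, 20 (71.4%) were above on both arrays, against 61.2% of all genes. The 3 abundant ones were galectins, Lgals1 (83563 and 73716), Lgals3 (31317 and 36707) and Lgals9 (24187 and 20697). All sialyltransferases above the level were moderate, and St6gal2, the other enzyme known to make the alpha2-6 linkage on N-glycans, read 73.4 and 8.27. Over the 5 secretory lists, 116 of 148 genes (78.4%) were above on both arrays and 60 (40.5%) were abundant. Of all genes, these shares were 61.2% and 10%.

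Every fibrillar matrix gene measured, 36 of 36, was above the level on both arrays, and 12 were abundant. Sparc, a collagen-binding protein, read 109720 in pool 1 and 124470 in pool 2. Col3a1, the main chain of type III collagen, read 66671 and 67754, Col1a2 read 23392 and 25458 and Col1a1 read 13896 and 17447. Postn, the matricellular protein periostin, read 35932 and 50061, Col11a1 read 45424 and 30976 and Ccn2 read 40132 and 37269. Dcn and Bgn, the small proteoglycans decorin and biglycan, read 40999 and 34720 and 35015 and 45462. Markers of the fibroblasts themselves were lower, 16 of 20 above on both arrays with Gsn alone abundant at 27614 and 37313. Pdgfra read 1920 and 2841 with 1 of 3 probe sets above the level, Thy1 read 3008 and 4618 and Fap read 1452 and 2276. Tcf21 (455 and 433) and Mfap4 (133 and 92.6) were above on neither array.

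Basement membrane genes were led by type IV collagen: Col4a1 read 51309 in pool 1 and 61658 in pool 2, Col4a5 read 23358 and 28572 and Col4a2 read 13496 and 16698, with Agrn, the proteoglycan agrin, at 11832 and 22681. The laminin chain Lamc1 (4242 and 4280) and the linker Nid1 (4403 and 3798) were moderate, while the kidney-type chains Col4a3 (468 and 366) and Col4a4 (528 and 530) were above on neither array. Of 20 genes, 16 were above on both. Among 32 matrix proteases and inhibitors, the abundant ones were the lysosomal cathepsins Ctsb (91326 and 99658), Ctsl (50295 and 74025), Ctss (54624 and 67473) and Ctsd (41592 and 37751), together with Timp2, Timp3 (25477 and 24018) and Adam10 (29108 and 27430). The Mmp genes, matrix metalloproteinases, were moderate at most. Mmp2, a gelatinase, read 8223 and 13634, Mmp14, its membrane-bound activator, read 10367 and 11688, and Mmp9 read 679 and 758, just above the level on 1 of its 2 probe sets. Mmp7 (146 and 329), Mmp8 (156 and 266), Mmp10 (99.5 and 357) and Mmp11 (457 and 331) were above on neither array. Plau, the urokinase gene, read 49.7 and 75.7.

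Macrophage and dendritic cell genes had the most abundant members of the immune lists, with 30 of 34 above on both arrays and 15 abundant. Cd74, the invariant chain of class II antigen presentation, read 92715 in pool 1 and 116941 in pool 2, and the class II chain H2-Aa read 81506 in pool 1 and 95386 in pool 2. Apoe, a lipid carrier of macrophages, read 81001 and 71640. Csf1r, the growth factor receptor that defines the lineage, read 28589 and 31483, and C1qa, a complement subunit made by tissue macrophages, read 29813 and 30610. Cd68 (4905 and 4677), Adgre1 (4393 and 5414), which encodes F4/80, and Mrc1 (3598 and 5164) were moderate. Itgam (507 and 514), Trem2 (520 and 561) and Xcr1 (109 and 137) were above on neither array. Cd14, Lyz2 and Apoe can be made by mammary epithelium too, so the list is not pure.

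Genes of lymphocytes were mostly below the level. Of 33 T, NK, B and plasma cell genes, 10 were above on both arrays (30.3%, against 61.2% of all genes) and 19 on neither. Cd3e, a chain of the T cell receptor complex, read 153 in pool 1 and 777 in pool 2, and Cd8a read 649 and 499, each above the level on 1 pool. Cd3d (452 and 48), Cd4 (107 and 135), Cd2 (11.5 and 54.9) and Cd79a (180 and 210) were above on neither array. The brightest member, Sdc1 (19490 and 20886), is a plasma cell marker that epithelium also makes, and Ptprc, found on all leukocytes, read 6554 and 8322. More specific members above on both arrays were Jchain, which joins secreted antibodies (1487 and 2236), the T cell kinase Zap70 (2630 and 1698), and the cytotoxic granule genes Gzma (759 and 812), Gzmb (853 and 685) and Prf1 (784 and 654), the last 3 close to the level. Of 18 neutrophil and mast cell genes, 5 were above on both arrays (27.8%, against 61.2% of all genes) and 13 on neither. Among the latter were Mpo (279 and 263), Cxcr2 (72.7 and 40.1) and Elane (314 and 252). The 5 above were S100a8, abundant as given with the defence proteins, and 4 moderate genes, among them Csf3r and Cma1. Cma1, a chymase of mast cells, read 574 and 588, barely above the level. Erythroid genes were low as well where measured, 6 of 8 above on neither array, with Hba-a1 at 44.6 and 309 and Alas2 at 470 and 523. Of the 13 genes on that list only 8 had a probe set of their own, so nothing is said of the rest. The 2 members above were Tfrc, which all dividing cells use to take up iron (8432 and 8954), and Epor (712 and 783).

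Endothelial and pericyte genes were present at moderate signals, 22 of 28 above on both arrays and 0 abundant, with a median of 1162. Notch3, a receptor of pericytes, read 8982 and 13481, Pdpn, a marker of lymphatic and basal cells, read 9533 and 12157, Aplnr read 7306 and 11307 and Rgs5 read 6588 and 7081. The endothelial markers Cdh5 (1220 and 777) and Kdr (960 and 960) were little above the level, and Pecam1 read 479 and 98.3. Tie1 (396 and 386), Prox1 (389 and 75.4) and Angpt2 (472 and 551) were above on neither array. Among 19 adipocyte genes 12 were above on both arrays (63.2%, near the 61.2% of all genes). Adipoq, the fat cell hormone adiponectin, read 4890 in pool 1 and 3917 in pool 2, Fabp4, its fatty acid carrier, read 15850 and 13390 and Car3 read 21339 and 25451. Lep, the leptin gene, read 24.2 and 294, and Pparg, the master regulator of fat cells, read 389 and 497. Skeletal muscle genes were above on both arrays in 9 of 21 cases, but the count rests on readings near the level: it was 15 on pool 1 alone, with that pool's highest Y-linked signal as the level, and 2 at 2 times the level. Mb, the myoglobin gene, read 4625 and 4005 and Acta1 read 3007 and 3543, while Ckm (465 and 291) and the myosins Myh4 (414 and 420) and Myh2 (126 and 51.9) were above on neither. Over the 11 stromal lists, 180 of 268 genes (67.2%) were above on both arrays and 43 (16%) were abundant, against 61.2% and 10% of all genes.

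**Figure D4:**
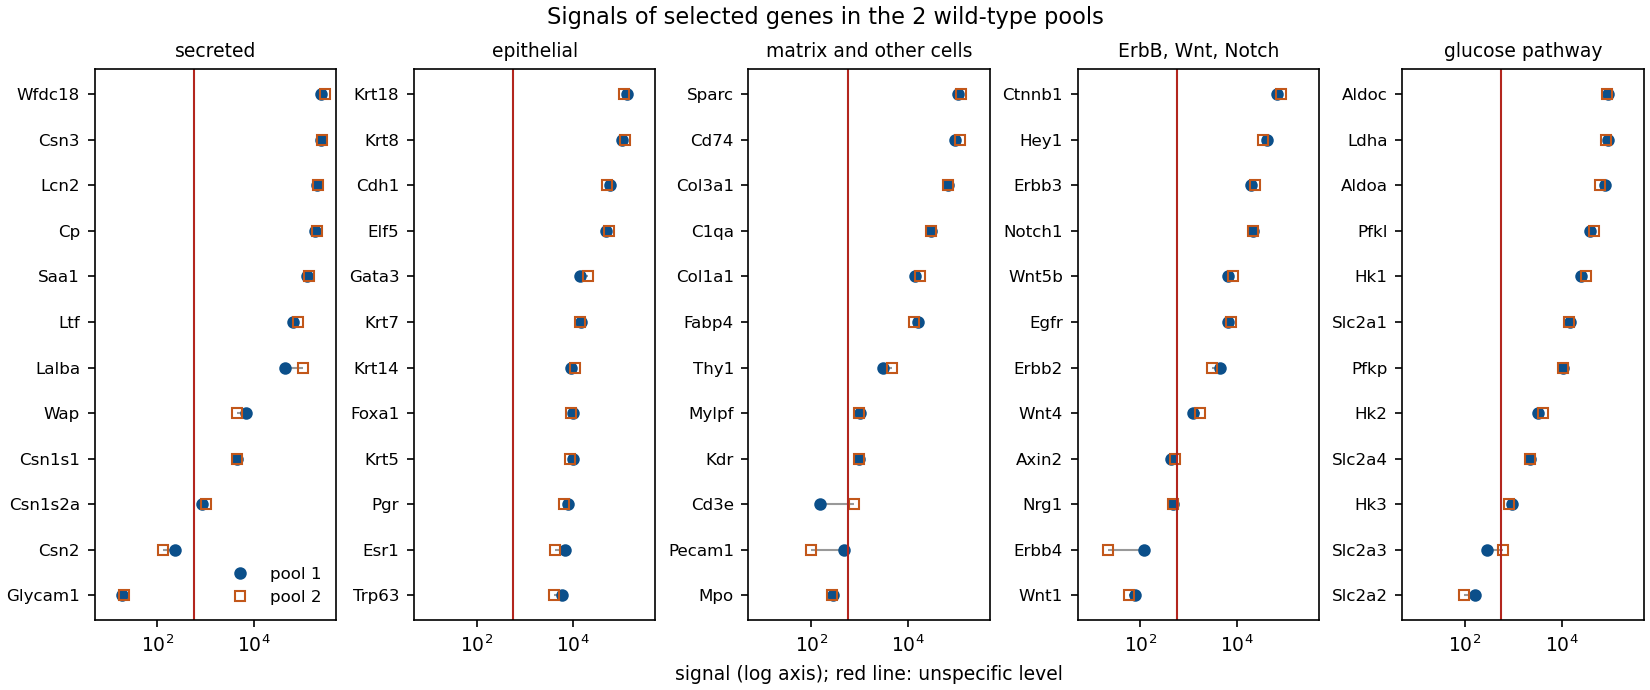
Signals of selected genes in pool 1 (filled circles) and pool 2 (open squares) on a log axis in 5 panels, with the unspecific level of 565 as a red line. The pools of many bright genes nearly coincide, but those of Lalba (42860 and 101093) lie apart. Related genes such as Csn3 and Csn2, Erbb3 and Erbb4, or Slc2a1 and Slc2a2 fall on opposite sides of the line.

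Metabolic genes had the largest share of abundant members of the 5 classes, 121 of 257 (47.1%), against 10% of all genes. Among ribosomal and translation genes, 36 of 44 were abundant. Rpl3l, the muscle form of a ribosomal protein, read 189 and 26.3. Runs of at least 8 C or T within 10 bases of the start, the letters known as the core of the 5' terminal pyrimidine tract of such genes, were found in 17 of the 46 promoters of this list (37%), against 14.0% of all promoters of genes with a probe set. Other lists were as high or nearly so: basement membrane genes at 50%, macrophage and dendritic genes at 38.5% and endothelial and pericyte genes at 31.6%. The runs are thus not particular to ribosomal genes. Rpl13a and Rpl38 above show such runs, of 14 and 10 bases. The promoters of Rps3a1 and Rpl41, ribosomal genes also among the brightest, held no such run.

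Respiration genes followed, 36 of 52 abundant. Uqcrb, a subunit of complex III, read 135949 in pool 1 and 148391 in pool 2, and the cytochrome oxidase subunits Cox4i1, Cox7a2 and Cox6b1 read 112169 and 128076, 112176 and 120024 and 113560 and 119659. Cs, the citrate synthase at the entry of the cycle, read 21739 and 24782, and Atp5a1, of the ATP synthase, read 43406 and 45040. Some tissue forms were below the level and others were not. Cyct, the cytochrome c of testis, read 248 and 106, against 53707 and 57605 for Cycs. Cox4i2 read 303 and 289, Pdha2, the testis form of pyruvate dehydrogenase, read 15.7 and 12.7, and Ucp1, of brown fat, read 31.2 and 24.7. The heart and muscle forms Cox7a1 (2382 and 1900), Cox8b (1661 and 1264) and Cox6a2 (801 and 823) were moderate. By the median of its probe sets, Cox6a2 read 478 and 438 and was above on neither array. Ppargc1a, a regulator of mitochondrial number, read 374 and 490, while its relative Ppargc1b was moderate at 1993 and 2051. Ndufa4 (19514 and 6095) and Cox8a (20390 and 7182) were the 2 members at least 2-fold lower in pool 2.

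At some steps of glycolysis a single isoenzyme was above the level and at others several were. Ldha, which makes lactate, read 89328 in pool 1 and 82344 in pool 2, and the other 3 genes at the top were Tkt, the transketolase of the pentose phosphate path, at 112031 and 122100, Aldoc, already named, and Aldoa at 78316 and 61383. For glucose uptake, Slc2a1 was abundant at 14626 and 14004, Slc2a4 was moderate at 2163 and 2228, and Slc2a2 of liver (163 and 96.3) and Slc2a5 (231 and 473) were above on neither array. For the first kinase step, Hk1 was abundant (24564 and 31324) and Hk2 (3182 and 4108) and Hk3 (919 and 823) were moderate. Pkm read 55134 and 65826 and the liver and red cell form Pklr read 226 and 637. Pgk2 of testis (186 and 24.6), Pgam2 of muscle (52.3 and 23.1) and Ldhc of testis (214 and 251) were above on neither array, against Pgk1 at 41647 and 34450, Pgam1 at 18331 and 23209 and Ldhb at 15800 and 21776. Of 39 members, 27 (69.2%) were above on both arrays, near the 61.2% of all genes, and 14 (35.9%) were abundant, against 10%.

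Lipid synthesis genes were above on both arrays in 37 of 44 cases, and 12 were abundant. Scd1 and Scd2, which desaturate fatty acids, read 72461 in pool 1 and 64881 in pool 2 and 66098 in pool 1 and 77986 in pool 2. Srebf1, the regulator of fatty acid synthesis, read 54576 and 60265, and Fabp5 read 64290 and 70732. Fasn, the fatty acid synthase, read 15826 and 20550, and Thrsp, a lipogenic protein of the lactating gland and fat, read 30165 and 31268. On the sterol side Hmgcs1 read 13529 and 11618, just under the limit of the abundant band, and Sqle (5267 and 5392) and Srebf2 (3811 and 5585) were moderate as well. Fabp1 (124 and 134), Fabp3 (424 and 287), Fabp7 (140 and 76.8) and Elovl3 (94.9 and 410) were above on neither array.

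Amino acid genes were mostly moderate, 26 of 37, with 6 abundant. Got2, the mitochondrial aspartate aminotransferase, read 30007 in pool 1 and 39242 in pool 2. The transporter genes Slc3a2 and Slc38a2 read 21081 and 22033 and 20798 and 21515, and Arg1, an arginase that macrophages make, read 19425 and 20240. Asns (8126 and 11023), Phgdh (8370 and 10628) and Shmt2 (7457 and 8064) were moderate. Ass1, needed to make arginine, read 466 and 442, and Slc7a11, the cystine transporter, read 300 and 254, both above on neither array. Redox genes were above on both arrays in 38 of 41 cases with 17 abundant. After Fth1 came Txn1, a thioredoxin, at 67550 and 78735, and the glutathione peroxidases Gpx1 and Gpx4, at 67967 and 72709 and 60154 and 74301. Sod1 read 27997 and 25596. Car9, a carbonic anhydrase known to be induced by hypoxia, was moderate at 3799 and 4895. The brain and skin metallothioneins Mt3 (15.4 and 147) and Mt4 (236 and 39.4) were above on neither array, against 36442 and 29376 for Mt1. Over the class, 220 of 257 genes (85.6%) were above on both arrays, against 61.2% of all genes.

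Of 50 genes of middle T partners and of steps downstream of them, 49 (98%) were above on both arrays, against 61.2% of all genes. Of these, 16 were abundant. The count rests on the brightest probe set: by the median of their probe sets, 39 were above on both arrays. The scaffold subunit Ppp2r1a of protein phosphatase 2A read 79579 in pool 1 and 100457 in pool 2, and the catalytic subunit Ppp2ca read 44914 and 51046. The 14-3-3 proteins, some of which bind phosphorylated middle T, were bright, with Ywhae at 92289 and 109131 and Ywhab at 71952 and 79071. Pik3r1, the regulatory subunit of phosphoinositide 3-kinase, read 76491 in pool 1 and 41193 in pool 2. Src, the kinase that phosphorylates middle T, read 3814 and 5474, Shc1, an adaptor that binds it, read 5789 and 3030, and Yes1 (3929 and 2632) and Fyn (4336 and 3964) were moderate too. Plcg1 read 5526 and 7186 with 1 of 3 probe sets above the level. Downstream, Akt1 read 9267 and 12349 and Deptor, an inhibitor of mTOR, read 31675 and 37263. The member above on neither array was Inpp4b, a lipid phosphatase, at 201 and 237.

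Among ErbB receptors and ligands, 10 of 16 (62.5%) were above on both arrays and 2 (12.5%) were abundant, near the 61.2% and 10% of all genes. Erbb3, the receptor with little kinase activity, read 19849 in pool 1 and 23099 in pool 2, while Erbb4 read 120 in pool 1 and 21 in pool 2. Egfr (6549 and 7637) and Erbb2 (4480 and 3028) were moderate, and Errfi1, a feedback inhibitor, was abundant at 23369 and 26188. The ligands were low: Tgfa read 1628 and 1161, Egf read 1010 and 1108, and Ereg (127 and 210), Epgn (293 and 219) and Nrg1 (466 and 470) were above on neither array. Other receptor kinases and ligands were above on both arrays in 41 of 52 cases. Ddr1, a collagen receptor of epithelium, read 60242 in pool 1 and 74033 in pool 2, Fgfr1 read 12910 and 16334, Met read 12895 and 12169 and Igf1r read 2726 and 1710. Of the insulin-like growth factor binding proteins, Igfbp5 led, followed by Igfbp4 at 30861 and 39393 and Igfbp7 at 16104 and 25556. Hgf, the ligand of Met (66.5 and 388), Fgf2 (335 and 59), Fgf10 (54.7 and 15.7) and Igf2 (253 and 513) were above on neither array.

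Wnt genes were split by role. The shared effector Ctnnb1, beta-catenin, read 68087 in pool 1 and 81151 in pool 2, the kinase Gsk3b read 23085 and 16073 and the secreted inhibitor Sfrp1 read 14643 and 20636. Receptors such as Lrp6 (8843 and 9238), Fzd7 (8239 and 6573) and Fzd6 (7042 and 7830) were moderate. Most ligands were below the level: Wnt1 (78.2 and 58.7), Wnt2 (113 and 26.5), Wnt3a (242 and 139) and Wnt10b (76 and 72.2) were above on neither array, while Wnt5b (6479 and 8376), Wnt5a (4785 and 2582), Wnt7b (1689 and 2227) and Wnt4 (1222 and 1676) were moderate. In all 29 of 49 were above on both arrays, or 59.2%, near the 61.2% of all genes. Notch genes were above on both arrays in 20 of 21 cases. Notch1 read 21112 and 20995, the target Hey1 read 40752 and 34801, Adam10, the protease that cleaves the receptor, is given above, Rbpj read 5675 and 6140 and Hes1 read 3366 and 3566. The ligand Dll3 read 191 and 106.

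In the TGF-beta and BMP pathway 35 of 43 were above on both arrays and 11 abundant. Ltbp3, which binds latent TGF-beta, read 62110 in pool 1 and 64906 in pool 2. Tgfb3 was the abundant ligand, at 32788 and 41440, with Tgfb1 at 4319 and 6312. Of the receptors, Tgfbr2 read 39164 and 31896 and Tgfbr1 11945 and 13324. Inhbb, an activin subunit, read 41661 and 37490, and Smad3 read 5950 and 7879. Bmp4 (310 and 183), Bmp5 (423 and 204), Bmp6 (376 and 278) and the inhibitor Nog (35 and 36.4) were above on neither array.

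Cytokines and chemokines had the lowest share of members above on both arrays of the signalling lists, 55.8% or 29 of 52, with 21 on neither array. That share was near the 61.2% of all genes. The abundant ones were Ccl8, a monocyte chemokine, at 14576 in pool 1 and 15719 in pool 2, and Il6st, a shared receptor chain, at 15116 and 11693. Cxcl12 (10071 and 9416), Cx3cl1 (8469 and 9292) and Il33 (7588 and 9172) were moderate, as was Csf1, the ligand of Csf1r, at 3993 and 5005. Cxcl1 read 2818 and 2053, and Ccl2, a chemokine that recruits monocytes, read 480 and 916, above on 1 array. Il6 (167 and 125), Csf2 (28.4 and 58.3), Csf3 (341 and 107), Il1a (265 and 195) and Ifng (84 and 26.2) were above on neither. The promoters of this list held TATAAA in 18 of 46 cases, or 39.1%, against 6.21% of all promoters of genes with a probe set. Other lists were high as well, such as neutrophil and mast cell genes at 35.3% and genes of other tissues at 28.6%.

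Integrins and adhesion genes were above on both arrays in 38 of 44 cases with 17 abundant. Cd81 (77571 and 73435), Itga6 (61476 and 46036), Sdc4 (71448 and 40829) and Itgav (50540 and 45445, 2 of 5 probe sets above the level) were the brightest. Itgb1, the beta subunit most integrins share, read 10208 and 7709, with 3 of 6 probe sets above the level, and Itga3 (4392 and 4786) was moderate. Itga7 (404 and 299) was above on neither array. Immediate early genes, which respond within minutes to growth factors and to handling of tissue, were above on both arrays in 24 of 28 cases. Jund read 65383 and 86969, Fos read 13956 and 19863, Jun read 15604 and 13014 and Egr1 read 19630 and 24201. The heat shock genes of the list, Hspa8, Hspb1 (50476 and 58888) and Hspa1b (56189 and 54434), were abundant. Fosb (418 and 379), Fosl1 (51.2 and 127), Maff (408 and 446) and Arc (23.9 and 60) were above on neither. Over the signalling lists, 274 of 354 genes (77.4%) were above on both arrays and 72 (20.3%) abundant, against 61.2% and 10% of all genes.

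The genes that differed most between pools belonged to no 1 list. Lower in pool 2 were Sesn3, a stress-induced sestrin (31555 and 6626), Pfn1, the actin-binding profilin (20680 and 4777), Lgals7, a galectin of stratified epithelium (11080 and 2671), Hnrnpl (3856 and 930) and Ttc5 (3998 and 988). Among genes lower in pool 2, Sesn3 had the widest difference, -2.25 on the log2 scale. Higher in pool 2 were Ces5a, a carboxylesterase (894 and 4858), Rpf2 (1163 and 6108), Gga1 (1422 and 5483), Zfp950 (620 and 2074) and Shoc2 (4131 and 12718). Ces5a reached 2.44 on the log2 scale from a reading near the level. Among abundant genes 22 (1.21%) differed at least 2-fold, and among moderate genes 140 (1.5%).

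The bands also differed in promoter composition, which the ranking did not use. The median number of CpG pairs in 300 bases around the start was 22 for abundant, 20 for moderate, 12 for genes above on 1 array and 6 for those above on neither. Median GC content went the same way, 61.3%, 60.7%, 57.3% and 52.7%. TATAAA on the given strand, anywhere in the 300 bases, was found in 5.51% of promoters of abundant, 4.2% of moderate and 9.89% of genes above on neither array, against 6.21% of all. Restricted to 15 to 40 bases before the start, where a TATA box lies, the shares were 1.89%, 1.12% and 4.21%. Wfdc18, shown above, has it 31 bases before its start. These are shares of letters in RefSeq promoters of 14452 genes, and several promoters can belong to 1 gene.

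**Figure D5:**
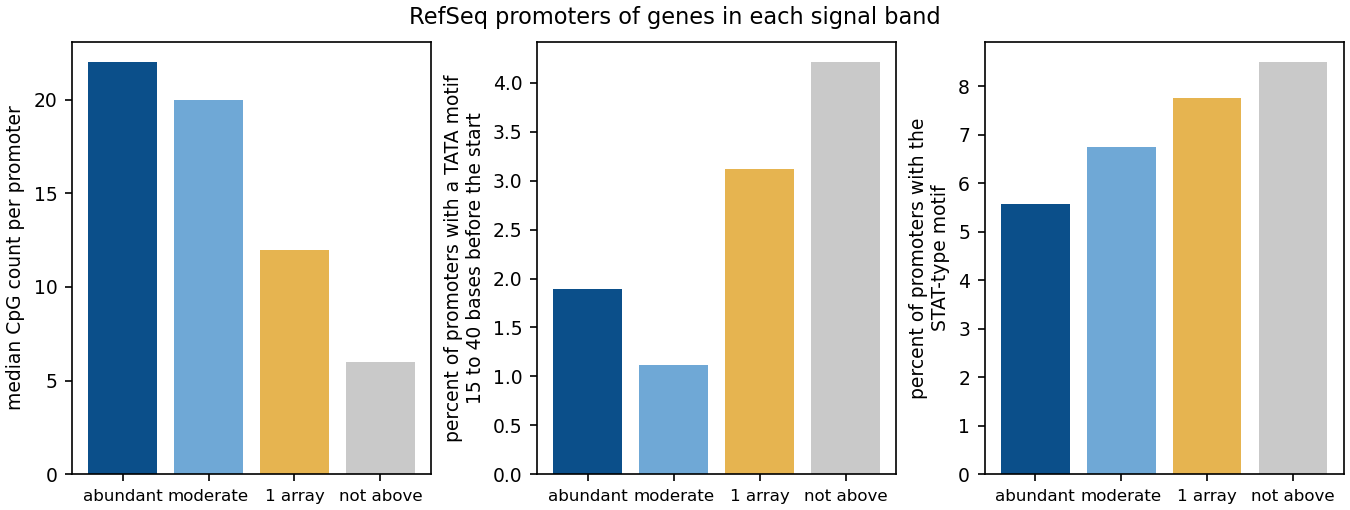
Bars give, for each band, the median number of CpG pairs per promoter, the percent of promoters with TATAAA 15 to 40 bases before the start, and the percent with the Stat-type motif anywhere in the 300 bases. CpG pairs decline from 22 in the abundant band to 6 in the band not above the level, while the TATA motif goes from 1.89% to 4.21% and the Stat-type motif from 5.56% to 8.49%.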

How the data were processed

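RNA of 2 pools of 3 wild-type tumors was measured on 1 array each. The deposited values are linear intensities, made with MAS5 (version not stated) per the submitters' processing notes. MAS5 gives 1 signal per probe set on a scaled array, and both arrays shared a mean of 2500.01 after 2% was trimmed at each end. The intensities were therefore used as deposited, and precision is limited by there being 2 arrays.

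Of 45101 probe sets, 64 controls were left out. GEO's platform annotation gave 1 symbol to 34945, several to 932 and none to 9160, and only the first were used. Of the 18193 symbols, 18145 matched RefSeq's table (GRCm38.p6). All columns were mapped, with 0 left over. Lists in 5 classes and controls held 1317 symbols, of which 1201 had a probe set; the others were not analysed here. The members, lists and rules were chosen with earlier results of these data known. Named genes are the 30 brightest, the 4 brightest and first 3 members of each list, up to 4 members above on neither array, and the 5 largest differences between pools each way; further ones were chosen after their values were seen. Immunoglobulin genes are not named.

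The code of the banding was run on simulated data with genes set far above or far below the level. Their bands follow from the definitions, so this checks only that the rules were applied as written. Alternatives were other probe sets, other levels, quantile normalization and each pool alone. Pandas 2.3.3, numpy 2.4.6 and scipy 1.17.1 were used. Promoters came from RefSeq's table, which holds 250 bases before and 50 after each start.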

Additional observations from a re-analysis of the deposited data

How the results depend on the processing

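The counts kept their size in 91 of 96 alternatives to the main results, each within 1.5 times the value given, and in 284 of 296 for single lists. The exceptions were the genes of other tissues and the genes higher in pool 2. Genes of other tissues above the level on both arrays numbered 7, but 4 by the median probe set of each gene and 12 with the second highest Y-linked probe set (414) as the level. Each pool alone gave from 10 to 13. Genes at least 2-fold higher in pool 2 numbered 52, but 86 with that lower level and 26 at 2 times the level. The cause was not tested, except that a lower level admits more dim genes and a higher one fewer. Of the 6 lists whose count moved in an alternative, all did so at 2 times the level, among them endothelial and pericyte genes, from 22 to 13 above on both arrays, lymphocyte genes, from 10 to 6, and skeletal muscle genes, from 9 to 2 (15 on pool 1 alone). With all chromosome Y genes setting the level, at 850, chosen after seeing the data, 10149 of the 11128 genes stayed above it on both arrays. The counts of 4 lists moved at that level. Lymphocyte genes fell from 10 to 6, skeletal muscle genes from 9 to 4, neutrophil and mast cell genes from 5 to 3. Erythroid genes fell from 2 to 1. By the median probe set, 10017 of the 11128 genes stayed above the main level on both arrays. Of the 1820 abundant genes 1338 stayed abundant by it, with 20 of the 30 brightest shared. No paired analysis was possible because there is 1 group and no test. Signals near the level, and genes read by 1 probe set, limit what can be said.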
